A study of Mus musculus with 24 samples.

Results

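Iron leaves the breakdown of red blood cells through a short chain of proteins, and 10 genes of that chain were followed here in blood RNA from mice of 2 ages, with and without x-ray exposure. They were taken by name: a probe belonged to the set when the gene name in the scanner files was Hmox1, Slc40a1, Fth1, Ftl1, Tfrc, Trf, Slc11a1, Slc11a2, Hfe or Steap3. This gave 17 of the 39429 probes on the array and 10 of its 29742 gene names. Macrophages of spleen and liver take up aged red blood cells, open their heme with heme oxygenase 1 (Hmox1), and either store the iron in ferritin (subunits Fth1 and Ftl1) or release it through ferroportin (Slc40a1). Transferrin (Trf), a plasma protein made mainly by hepatocytes, then carries the iron to transferrin receptor 1 (Tfrc) on maturing red blood cells. Inside the endosome the iron is reduced by Steap3 and moved to the cytosol by Slc11a2, the divalent metal transporter DMT1. Slc11a1 (NRAMP1) is the related transporter in the phagosomes of macrophages and neutrophils, and Hfe, the gene mutated in hereditary hemochromatosis, encodes a partner of the transferrin receptor.

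Blood came from 24 male C57BL/6J mice, 1 mouse to an array, in 4 groups of 6. Young mice were 2 months old and old mice 21 months old, and mice of each age received either 4 Gy of x-rays to the whole body or no dose, with blood drawn by cardiac puncture 24 h later. The labels name no transgene and no other agent, and the methods state that globin transcripts were depleted from the RNA. Each value below is the log2 of the background-subtracted signal minus the median of its array, so that 1 unit is a doubling, and levels are compared between groups for the same probe, never between probes. A gene was said to rise or fall when limma's moderated test on the 12 arrays compared passed both thresholds, a two-sided p under 0.005 and, over all 17802 genes tested, a p under 0.05 after Benjamini-Hochberg adjustment.

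Several arrays stood apart from their groups, and this touched the members directly. Old irradiated replicates 4 and 6 had median signals of 8.66 and 8.84, whereas the other 22 arrays lay at 14.4 or above. They correlated with each other at r = 0.99 over the genes tested, and with the remaining old irradiated arrays only at 0.78 to 0.85, whereas those 4 correlated with one another at 0.92 to 0.98. On 7 arrays (young unirradiated replicate 5, young irradiated replicates 2, 4 and 5, and old irradiated replicates 2, 3 and 5) the mean of 24 hepatocyte markers was between 3.93 and 7.89 above the young unirradiated mean, against 1.53 at most on the others. The split is one of level (a mean above 3), not of presence, since the markers were well above background for 100% of the list on young unirradiated replicate 3 and 79.2% on old irradiated replicate 4 as well. Results that rest on these arrays are given with and without them. Markers of blood cells were well above background in all groups, as the tissue label requires: at least 90% of the reticulocyte, 83.3% of the neutrophil and 85% of the lymphocyte markers on every array. Lymphocyte markers fell in 19 of 20 in young and 10 of 20 in old irradiated mice. From arrays of whole blood alone, fewer cells of a type and less RNA per cell cannot be told apart. The study's own blood counts, not used here, gave a lower percentage of lymphocytes after irradiation at both ages. Arrays of young and old mice were scanned on different days, so scan day and age cannot be told apart. No slide held mice of both ages, so slide and age cannot be told apart either.

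All 10 members passed the filters on dim and invariant probes through at least 1 probe, and no member spot was saturated. Of these genes, 6 had more than 1 probe, and for Hmox1, Tfrc, Slc11a2 and Steap3 the probes disagreed, which decides how far a gene's value can be read as that of its transcript. The sequences of the second probes of Hmox1, Slc11a2 and Steap3 are shown because those probes moved differently from the ones that represent the genes. The second probes of Ftl1 and Trf are shown too, with a Pearson r to the first of 0.73 and 0.999 over the 24 arrays. Positions are those of the scanner files (mm9), sequences are in the array's own orientation, 5′ to 3′, and no base is singled out in capitals.
Hmox1 A_55_P2029687 (chr8:77620797-77620856, + strand): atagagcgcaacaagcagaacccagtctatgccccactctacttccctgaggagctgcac
Slc11a2 A_52_P254298 (chr15:100240516-100240575, - strand): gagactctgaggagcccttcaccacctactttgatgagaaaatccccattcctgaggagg
Steap3 A_55_P2096883 (chr1:122124269-122124328, - strand): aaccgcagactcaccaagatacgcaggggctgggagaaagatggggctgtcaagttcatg
Ftl1 A_55_P1983959 (chr7:52714014-52714495, - strand): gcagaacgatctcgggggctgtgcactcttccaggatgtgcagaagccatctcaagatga
Trf A_55_P2037585 (chr9:103112826-103112885, - strand): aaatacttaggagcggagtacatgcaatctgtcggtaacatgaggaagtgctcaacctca
The Ftl1 probe covers 482 bases of the genome with its 60 bases, as a probe across a splice junction does. The probes that represent the genes lie at chr8:77624207-77624266 (Hmox1, 3350 bases further along the gene), chr15:100218333-100218392 (Slc11a2, 22123 bases further along on the minus strand) and chr1:122123244-122123303 (Steap3, 965 bases further along on the minus strand). The single Slc40a1 probe lies at chr1:45965255-45965314 and the Fth1 probe at chr19:10059485-10059544. The letters AATAAA, the common polyadenylation signal near the 3′ end of transcripts, stood in 5 of the 17 member probes, read in the array's orientation only, against 12.6% of all probes on the array. These were the probes that represent Slc40a1, Ftl1, Trf, Slc11a2 and Hfe, and none of the 5 sequences shown holds them. No mm9 annotation of exons was used here, so the part of the transcript that each probe reads is not given.

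Irradiation of young mice raised 4 of the 10 members and lowered none. These were ferroportin (Slc40a1, 3.97-fold), Slc11a1 (2.57-fold), Tfrc (2.44-fold) and Hmox1 (2.17-fold), and both ferritin subunits did not pass the test. For Hmox1 and Tfrc no other probe passed. Over all genes tested, 14.3% were called higher and 21.1% lower in this comparison. The median difference of the members was 0.82 on the log2 scale, against -0.20 over all genes. In old mice irradiation raised no member and lowered Slc11a2 (3.04-fold), where 7.49% of all genes were called higher and 17.4% lower. The members' median was 0.33 there, against -0.25 over all genes. Without replicates 4 and 6 of the old irradiated mice Slc40a1, Slc11a1 and Trf were also higher. Without the 3 arrays of that group that were high in hepatocyte transcripts, Tfrc (1.62) and Steap3 (2.35) were higher and Hfe (-2.53) lower. The 3 arrays then left included replicates 4 and 6, on which Steap3 was highest and Hfe lowest of the group. The arrays kept thus decided which members passed in old mice. The shares of all genes above are with all arrays kept, and those on the smaller sets are not given. Of 31 other genes of iron and heme handling, 2 rose and 2 fell with all arrays kept. Without replicates 4 and 6, 7 of them rose and 9 fell. The groups of each comparison are set out in the plot of the members' values by array.

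**Figure D1:**
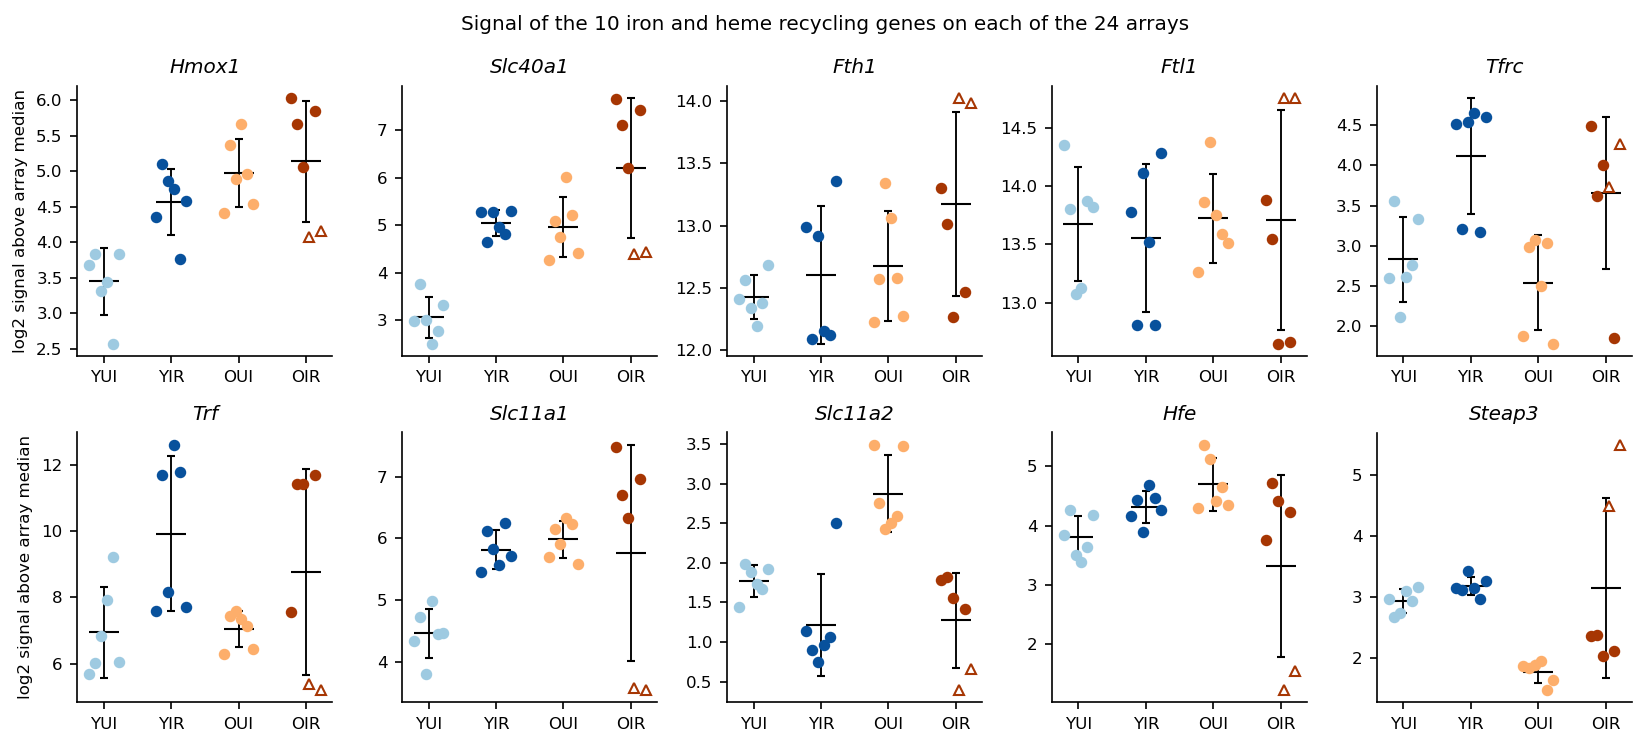
Log2 signal above the array median (vertical axis, one scale for each gene) of the 10 members on the 24 arrays, by group (Y, young or O, old, followed by UI for no dose and IR for x-rays). Points are mice, the bar and whiskers are the mean and SD (n = 6), and open triangles are old irradiated replicates 4 and 6. Slc40a1 and Slc11a1 separate young unirradiated mice from the 3 other groups except for the 2 triangles of Slc11a1, and these triangles lie outside the other 4 old irradiated arrays for every gene but Tfrc.

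Slc40a1 showed the clearest pattern. Its signal ran from 2.51 through a median of 2.997 to 3.77 in young unirradiated mice and from 4.65 through 5.12 to 5.30 in young irradiated mice. The values of old mice were 4.27, 4.93 and 6.01 (lowest, median and highest) without irradiation and 4.40, 6.66 and 7.66 with it. No young unirradiated array overlapped any of the other 3 groups, which overlapped one another. The rise in young mice was 1.99 (SE 0.21; adjusted p = 1.88e-05 by limma), and an exact two-sided permutation test over the 924 splits of 6 against 6 arrays gave p = 0.00216, the smallest it can give. Within the 1 slide that held both groups of young mice the difference was 1.91, on 2 arrays against 2, which did not pass the test. In old mice the difference of 1.25 (SE 0.59; adjusted p = 0.118 by limma) did not pass. The values of 4.40 and 4.44 on old irradiated replicates 4 and 6 lay below the 6.20 to 7.66 of the other 4. Without these 2 arrays the difference was 2.14 and passed (adjusted p = 0.00108 by limma). Within the mixed slide of old mice it was 2.57 on 2 arrays against 2 and passed (adjusted p = 0.0298 by limma). That slide holds neither replicate 4 nor 6 of the irradiated mice, so the 2 results share arrays and are not independent. In order of their means the groups were young unirradiated (3.06), old unirradiated (4.96), young irradiated (5.05) and old irradiated mice (6.21). The first of these stood apart from the second, the second and the third had overlapping values and differ in both age and dose, and the third and the fourth did not differ by the test.

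Hmox1, the enzyme that opens the heme ring, followed Slc40a1 across arrays. Its signal in young mice ran from 2.58 through 3.56 to 3.84 without irradiation and from 3.77 through 4.67 to 5.10 with it, so that the groups overlapped by their outermost values. In old mice it ran from 4.42 through 4.92 to 5.67 and from 4.07 through 5.36 to 6.03. The rise in young mice was 1.12 (SE 0.26; adjusted p = 0.00355 by limma), and the difference in old mice was 0.16 (SE 0.39; adjusted p = 0.763 by limma). Old irradiated replicates 4 and 6 were again the lowest of their group, and without them the difference was 0.68, which did not pass either. A second probe, the one whose sequence is given above, told another story: it ran from 1.80 to 2.66 in young unirradiated and from 1.38 to 2.44 in young irradiated mice, a difference of -0.17 (SE 0.23; adjusted p = 0.569 by limma). The 2 probes had a Pearson r of -0.07 over the 24 arrays. On old irradiated replicates 4 and 6 this probe read 4.36 and 4.34, against 1.70 to 2.55 on the other 4 arrays of the group, whereas the representing probe was low there. The rise of Hmox1 is therefore a rise of 1 of its 2 probes. It did not pass with the normexp background correction (1.10; adjusted p = 0.0804 by limma) or in the authors' own log2 table (1.04).

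Slc11a1, the metal transporter of phagosomes, ran from 3.80 through 4.46 to 4.98 in young unirradiated mice and from 5.45 through 5.77 to 6.25 in young irradiated mice. These groups did not overlap, and the rise was 1.36 (SE 0.21; adjusted p = 0.000225 by limma). In old unirradiated mice it ran from 5.58 through 6.03 to 6.33, and in old irradiated mice from 3.54 through 6.51 to 7.48. The rise in young mice did not pass with the normexp background correction (1.67; adjusted p = 0.0699 by limma) or when all 24 arrays shared 1 estimate of the spread. The wide range of old irradiated mice came from replicates 4 and 6 (3.57 and 3.54), since the other 4 lay between 6.33 and 7.48. The difference in old mice was accordingly -0.22 (SE 0.65; adjusted p = 0.812 by limma) with those arrays and 0.89 without them, which passed (adjusted p = 0.0119 by limma).

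The values of these 3 genes moved with markers of myeloid cells. Over the 24 arrays the Pearson r with the mean of 18 neutrophil markers was 0.89 for Slc40a1, 0.85 for Hmox1 and 0.62 for Slc11a1, and Slc11a1 had an r of 0.83 with 15 monocyte markers. The arrays share groups, scaling and total signal, so these are descriptions without a test. The neutrophil mean lay between -0.35 and 0.39 in young unirradiated, 0.42 and 1.17 in young irradiated, 0.86 and 2.50 in old unirradiated and 1.27 and 3.13 in old irradiated mice. In young irradiated mice 8 of 18 neutrophil markers rose and 1 fell, and 4 of 15 monocyte markers rose and 2 fell. In old irradiated mice 0 of 18 neutrophil markers rose or fell, and 0 of 15 monocyte markers rose and 3 fell. Markers of tissue macrophages, the cells that recycle heme iron, also moved: 14 of the 15 tested rose in young and 4 in old irradiated mice. Their mean on an array lay between -1.01 and 1.38 in young unirradiated and between 2.25 and 4.15 in young irradiated mice, with r of only 0.35 for Slc40a1 and 0.22 for Hmox1. The part of cell composition in the 3 rises was not tested. The genes most like Slc40a1 over the 24 arrays were Trpm2, Chac1 and Ulk1, each with r = 0.98. For Hmox1 they were Anxa1, Jdp2 and Clec4e (r from 0.92 to 0.93), and for Slc11a1 Rab31, Tlr4 and Aldh3b1 (r from 0.97 to 0.98).

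Ferritin, the store for iron that is not exported, did not pass the test in any comparison. Fth1, the heavy subunit with the ferroxidase site, ran from 12.19 through 12.39 to 12.69 in young unirradiated and from 12.09 through 12.53 to 13.36 in young irradiated mice, a difference of 0.18 with a 95% interval from -0.32 to 0.68. Old mice ran from 12.22 through 12.57 to 13.34 and from 12.27 through 13.16 to 14.02, a difference of 0.50 with an interval from -0.26 to 1.26. The groups overlapped throughout. Ftl1, the light subunit, differed by -0.12 (interval from -0.78 to 0.54) in young and by -0.02 (interval from -0.88 to 0.85) in old mice. Its values lay between 13.07 and 14.35 in young unirradiated, 12.81 and 14.29 in young irradiated, 13.26 and 14.38 in old unirradiated and 12.65 and 14.75 in old irradiated mice. Its second probe differed by -0.03 in young and 0.76 in old mice, neither past the test, and had an r of 0.73 with the first. Both subunits were highest on old irradiated replicates 4 and 6 (Fth1 at 14.02 and 13.98, Ftl1 at 14.75 on both), where the mean of 20 reticulocyte markers was 1.91 and 1.95, above the other 22 arrays, of which the highest was 0.99. The genes most like Ftl1 included both adult alpha globin genes, Hba-a2 and Hba-a1 (r = 0.98 and 0.97), measured here in globin-depleted RNA, and an unnamed transcript. Those most like Fth1 were Tmsb4x and Atpif1 (r = 0.96 and 0.95) and an unnamed transcript. Without the 7 arrays high in hepatocyte transcripts, Fth1 rose by 0.65 in young irradiated mice (adjusted p = 0.0124 by limma), on 5 arrays against 3.

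Trf had the widest range of all members. Its values in young mice were 5.69, 6.44 and 9.21 (lowest, median and highest) without irradiation and 7.59, 9.92 and 12.60 with it, and in old mice 6.30, 7.25 and 7.59, and 5.21, 9.48 and 11.70. The difference was 2.96 in young mice (SE 0.97; adjusted p = 0.0235 by limma, with the unadjusted p above 0.005) and 1.73 in old mice (SE 1.12; adjusted p = 0.248 by limma), and neither passed. Both irradiated groups fell into 2 separate levels. In young irradiated mice Trf lay between 11.68 and 12.60 on the 3 arrays high in hepatocyte transcripts and between 7.59 and 8.15 on the other 3. In old irradiated mice these ranges were 11.40 to 11.70 and 5.21 to 7.55, and the single such array among young unirradiated mice read 9.21, against 7.92 at most on the other 5. Of the hepatocyte markers, 1 of the 13 tested rose in young irradiated mice and 12 in old irradiated mice. Their mean lay between -3.42 and -2.80 in old unirradiated mice, where 16.7% to 25% of the list was well above background on an array. There Alb, Apoa1, Apob, Fga and Ttr were well above background on 0 of 6 arrays, whereas Apoa2, Fgb, Cyp2e1 and Tat were on 6 of 6. Without all 7 arrays the Trf difference was 1.31 in young and -0.997 in old mice, neither past the test. The 3 old irradiated arrays then left included replicates 4 and 6, which read 5.39 and 5.21. Without old irradiated replicates 4 and 6 alone, which leaves 3 arrays high and 1 low in hepatocyte transcripts, the difference in old mice was 3.47 and passed (adjusted p = 0.00257 by limma). The 2 Trf probes gave the same result (r = 0.999). Over the 24 arrays Trf had a Pearson r of 0.86 with the mean of the hepatocyte markers (Spearman 0.61). It also had a Pearson r of 0.86 with the mean of the tissue macrophage markers (Spearman 0.86). With the reticulocyte markers the Pearson r was -0.85, and the part of each cell type was not tested. The named genes most like Trf were Hal and Sult1a1, both with r = 0.97.

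**Figure D2:**
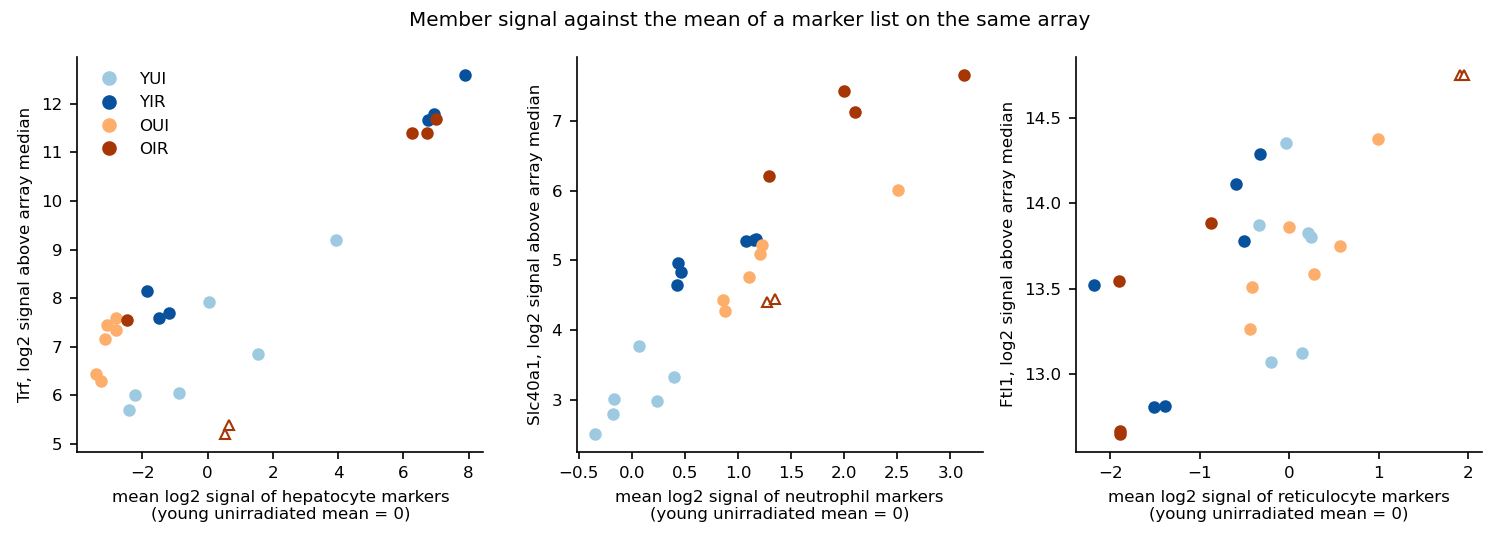
Signal of Trf, Slc40a1 and Ftl1 (vertical axes, log2 above the array median) against the mean of the hepatocyte, neutrophil and reticulocyte markers on the same array (horizontal axes, log2, with the young unirradiated mean at 0). Each point is 1 of the 24 mice, coloured by group, and open triangles are old irradiated replicates 4 and 6. The 6 irradiated arrays with a hepatocyte mean above 6 carry Trf at 11.40 or more, and the triangles hold the highest Ftl1 values.

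Of the genes that take up transferrin iron, Tfrc rose in young irradiated mice by 1.28 (SE 0.33; adjusted p = 0.00693 by limma). Its signal ran from 2.11 through 2.69 to 3.55 without irradiation and from 3.18 through 4.53 to 4.65 with it, so that 2 irradiated arrays lay within the range of the unirradiated ones. In old mice it ran from 1.79 through 2.74 to 3.07 and from 1.85 through 3.87 to 4.48, a difference of 1.12 (SE 0.43; adjusted p = 0.0592 by limma) that did not pass. Old irradiated replicate 5 (1.85) was alone at the low end, and without it the difference was 1.48 and passed (adjusted p = 0.00623 by limma). The rise in young mice was close to the threshold: it did not pass when young unirradiated replicate 1, 3 or 4 or young irradiated replicate 1, 3, 4 or 6 was left out, with differences between 1.14 and 1.24. A second Tfrc probe at chr16:32632255-32632314, 11725 bases downstream and printed 10 times on each array, went the other way. It ran from 0.68 to 2.16 in young unirradiated and from -0.16 to 1.44 in young irradiated mice, a difference of -0.87 (SE 0.31; adjusted p = 0.0386 by limma) that missed the threshold for p. These 2 probes had an r of -0.05. The third Tfrc probe was well above background on none of the 12 unirradiated arrays and on 2 of the 12 irradiated ones. The genes most like Tfrc were Cntln, Ahcyl2 and Akap7 (r from 0.86 to 0.89).

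Slc11a2 was the 1 member that fell after irradiation, and it fell in old mice. The values there were 2.43, 2.68 and 3.49 without irradiation and 0.39, 1.49 and 1.83 with it, and the groups did not overlap. The fall was -1.60 (SE 0.33; adjusted p = 0.00332 by limma), and it was -1.23 without replicates 4 and 6 (adjusted p = 0.00265 by limma). In young mice it ran from 1.44 through 1.81 to 1.98 and from 0.75 through 1.01 to 2.51, a difference of -0.55 (SE 0.26; adjusted p = 0.102 by limma). A single array, young irradiated replicate 6, carried the value of 2.51, and without it the difference of -0.81 passed the test (adjusted p = 0.000884 by limma). The signal followed lymphocyte markers over the 24 arrays (r = 0.77 with the mean of 20 markers), which lay between -2.55 and -1.36 on every irradiated array and between -0.23 and 0.76 on every unirradiated one. The part of these cells in the fall was not tested. The second probe, whose sequence is given above, differed by -0.01 (SE 0.21) in young and by 0.65 (SE 0.41; adjusted p = 0.243 by limma) in old mice, and had an r of -0.38 with the first. It was the brighter of the pair but had been removed by the filter on variation, so the fall of Slc11a2 rests on 1 of its 2 probes. The fall did not pass with the normexp background correction (-0.46). The genes most like the representing probe were Nolc1, Kbtbd11 and Psmb8 (r from 0.95 to 0.96).

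Hfe and Steap3 did not pass the test after irradiation at either age. Hfe ran from 3.39 through 3.74 to 4.26 and from 3.89 through 4.35 to 4.68 in young mice, a difference of 0.52 (SE 0.19; adjusted p = 0.0405 by limma, with the unadjusted p above 0.005). In old mice it ran from 4.29 through 4.53 to 5.36 and from 1.22 through 3.99 to 4.73, a difference of -1.38 (SE 0.59; adjusted p = 0.0849 by limma). Replicates 4 and 6 read 1.22 and 1.54 there, against 3.75 to 4.73 on the other 4 arrays, and without them the difference was -0.42. Over the 24 arrays Hfe had an r of 0.88 with the mean of the monocyte markers, and this mean was lowest on the same 2 arrays (-1.31 and -1.20). The genes most like Hfe were Tmem51, Cybb and Skint3 (r from 0.95 to 0.97).

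Steap3, the ferrireductase of maturing red blood cells, was narrow in 3 groups and wide in the fourth. It ran from 2.67 through 2.95 to 3.17 in young unirradiated, from 2.97 through 3.15 to 3.43 in young irradiated and from 1.47 through 1.85 to 1.95 in old unirradiated mice. In old irradiated mice it ran from 2.03 through 2.37 to 5.50, where replicates 4 and 6 read 4.502 and 5.50 and the other 4 arrays read 2.03 to 2.37. The difference was 0.25 (SE 0.14; adjusted p = 0.143 by limma) in young and 1.37 (SE 0.55; adjusted p = 0.0692 by limma) in old mice. All 6 old irradiated values lay above all 6 unirradiated ones, so the exact permutation test gave p = 0.00216, while the fit across genes did not pass. Without replicates 4 and 6 the difference was 0.45, which did not pass either. The second Steap3 probe, given above, behaved otherwise: it ran from 0.10 to 1.37 in young unirradiated and from 1.57 to 3.51 in young irradiated mice and rose by 1.85 (SE 0.31; adjusted p = 0.000484 by limma). In old mice it differed by -0.28 (SE 0.68; adjusted p = 0.771 by limma), and the r of the 2 probes was -0.36. The genes most like the representing probe were Etv5, Trpv4 and Vwa8 (r from 0.96 to 0.97).

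**Figure D3:**
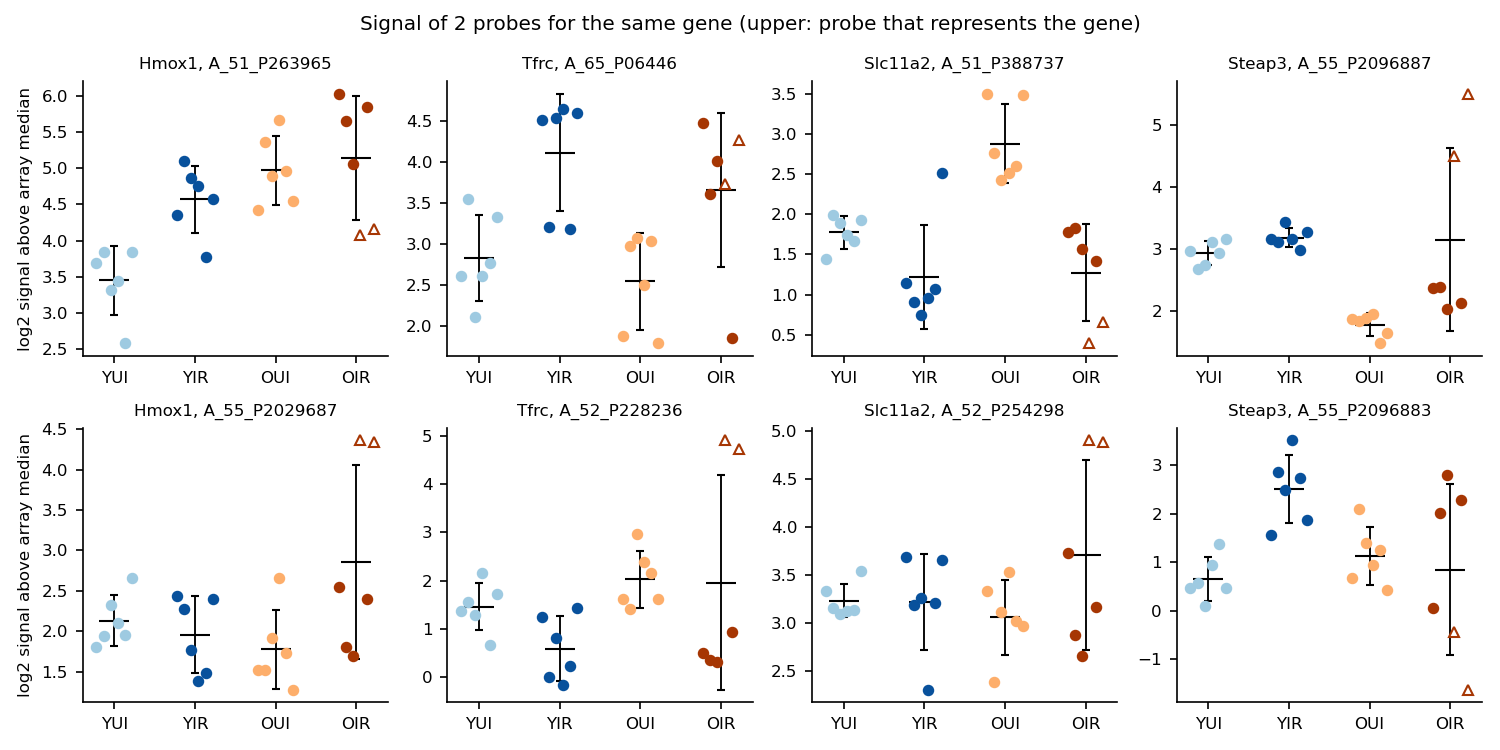
Log2 signal above the array median of 2 probes for each of Hmox1, Tfrc, Slc11a2 and Steap3 on the 24 arrays, with the probe that represents the gene in the upper row. Points are mice, the bar and whiskers are the mean and SD (n = 6) and open triangles are old irradiated replicates 4 and 6. The upper Hmox1, Tfrc and Slc11a2 probes and the lower Steap3 probe carry the changes that passed the test after irradiation, and their partners do not show them.

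The same members were then compared between the ages. In unirradiated mice, 5 of the 10 were higher in old than in young mice and 1 was lower. However, 48.4% of all genes tested were called higher and 15.4% lower, and the median over all genes was 0.63, against 0.57 for the members, so the members' count was near the background. With each array scaled to its 75th percentile, by quantile normalization or on the probes well above background on every array, the median over all genes was 0.11, 0.16 and 0.04. Under these scalings the share of higher genes among those called went from 75.8% to 36.7%, 48.6% and 28.1%.

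Slc40a1 was 1.90 higher in old unirradiated mice (SE 0.29; adjusted p = 8.12e-05 by limma), Hmox1 1.52 (SE 0.26; adjusted p = 0.000166) and Slc11a1 1.52 (SE 0.20; adjusted p = 3.41e-05). None of the 3 overlapped between the ages, nor did Slc11a2, Hfe or Steap3. The share of all genes without overlap is not given, and 48.4% of all genes were called higher and 15.4% lower. The lack of overlap is therefore not read as particular to the members. Slc40a1, Hmox1 and Slc11a1 all passed under the other 3 scalings, with differences from 1.31 to 1.39 for Slc40a1, 0.94 to 1.01 for Hmox1 and 0.93 to 1.003 for Slc11a1. Slc40a1, Hmox1 and Slc11a1 are the exporter, the heme oxygenase and the phagosomal transporter that also rose in young irradiated mice, and both comparisons share the young unirradiated arrays. Steap3 was 1.15 lower (the difference was -1.15, SE 0.14; adjusted p = 1.55e-05) and passed under each of these scalings too, from -1.74 to -1.53. Slc11a2 was 1.10 higher (SE 0.21; adjusted p = 0.000379), but 0.59, 0.71 and 0.52 under the other scalings, of which only the quantile value passed. Hfe was 0.90 higher (SE 0.22; adjusted p = 0.00246) and, at 0.31 to 0.38, did not pass under the other scalings. Fth1, Ftl1, Tfrc and Trf did not pass under any of the 4, and the differences of Fth1 (0.25), Ftl1 (0.05) and Trf (0.09) turned negative under the other 3. With the normexp background correction no gene of the 17802 was called between unirradiated ages, and when all 24 arrays shared 1 estimate of the spread Slc11a1, Steap3 and Hfe did not pass. The second probes of Hmox1, Slc11a2 and Steap3 differed by -0.36, -0.17 and 0.48, and none passed. Under the other 3 scalings, where these probes were not tested, the differences were -0.94 to -0.68 for Hmox1, opposite to its first probe, -0.76 to -0.67 for Slc11a2, and -0.044, 0.31 and -0.11 for Steap3. Monocyte markers were higher in 12 of 15 and neutrophil markers in 11 of 18 in old unirradiated mice, and the part of these cells was not tested.

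**Figure D4:**
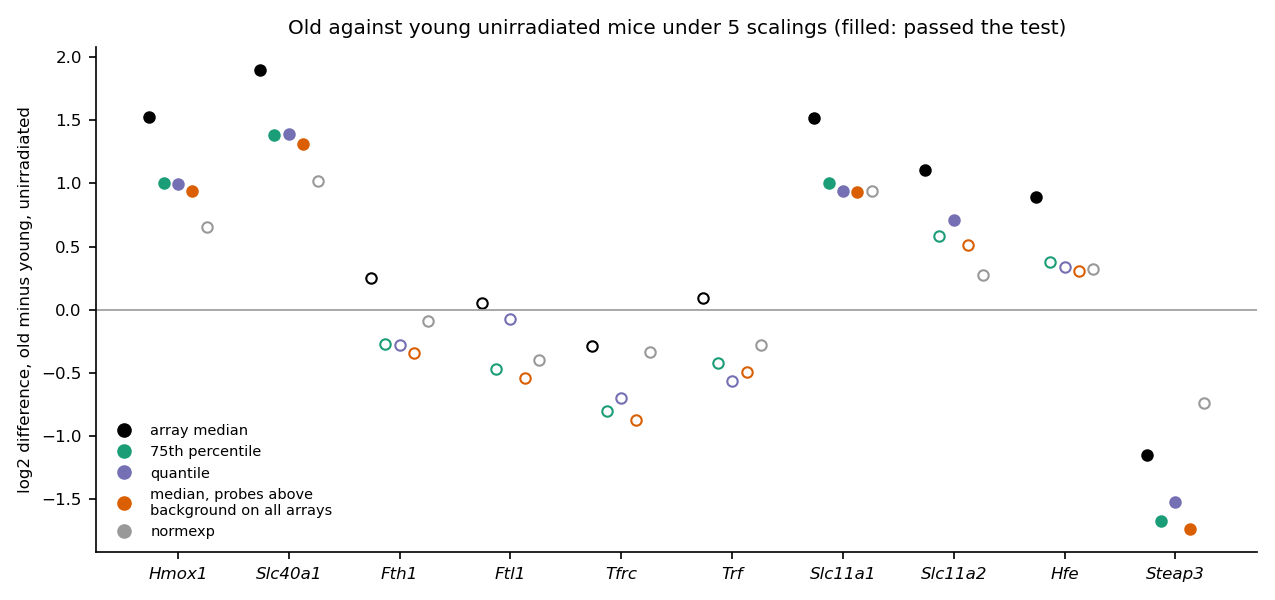
Log2 difference between old and young unirradiated mice (vertical axis) for the 10 members under 5 ways of scaling or background correction, shown by colour. Filled points passed the test. Slc40a1, Hmox1 and Slc11a1 stay above 0 and Steap3 below 0 under each, whereas Fth1, Ftl1 and Trf are above 0 only with the array median, and no member passed with normexp.

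Irradiated old and young mice did not differ in any of the 10 members by the test, where 1.4% of all genes were called higher and 0.595% lower. The differences ran from -1.14 for Trf to 1.16 for Slc40a1 (SE 0.56; adjusted p = 0.254 by limma), with a median of 0.01, against 0.20 over all genes. Without old irradiated replicates 4 and 6, 4 members passed: Slc40a1 at 2.05 (adjusted p = 0.0016), Hmox1 at 1.08 (adjusted p = 0.0125), Slc11a1 at 1.05 (adjusted p = 0.00857) and Steap3 at -0.96 (adjusted p = 0.00221), all by limma. The same 4 genes passed in the same directions between unirradiated ages, where 48.4% of all genes were called higher and 15.4% lower. Without replicates 4 and 6, 6 of 31 other genes of iron and heme handling were also called higher and 0 lower. The 1.4% and 0.595% above are with all arrays, and the share of all genes without these arrays is not given. The count of 4 members thus has no background beside it and is not read as a result about the members.

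The difference between the responses of old and young mice was itself tested over the 24 arrays. No member passed, and 0% of all genes were called, although 4191 of 17802 genes had an unadjusted p below 0.05. The study's random variance test called none either. The widest differences of responses (old minus young) were -1.90 for Hfe (SE 0.65; adjusted p = 0.132 by limma), -1.58 for Slc11a1 (SE 0.71; adjusted p = 0.191) and -1.23 for Trf (SE 1.57; adjusted p = 0.613). For Slc11a2, which fell in old mice only, the difference was -1.05 (SE 0.42; adjusted p = 0.158 by limma), so its response is not shown to differ between the ages. For Slc40a1 the difference was -0.74 with replicates 4 and 6 and 0.15 without them. Without all 7 arrays high in hepatocyte transcripts, which leaves replicates 4 and 6 as 2 of 3 old irradiated arrays, Hfe passed (-2.80; adjusted p = 0.0098 by limma) and no other member did, with Trf at -2.31 (adjusted p = 0.0311), short of the unadjusted threshold of 0.005. Without replicates 4 and 6 no member passed.

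**Figure D5:**
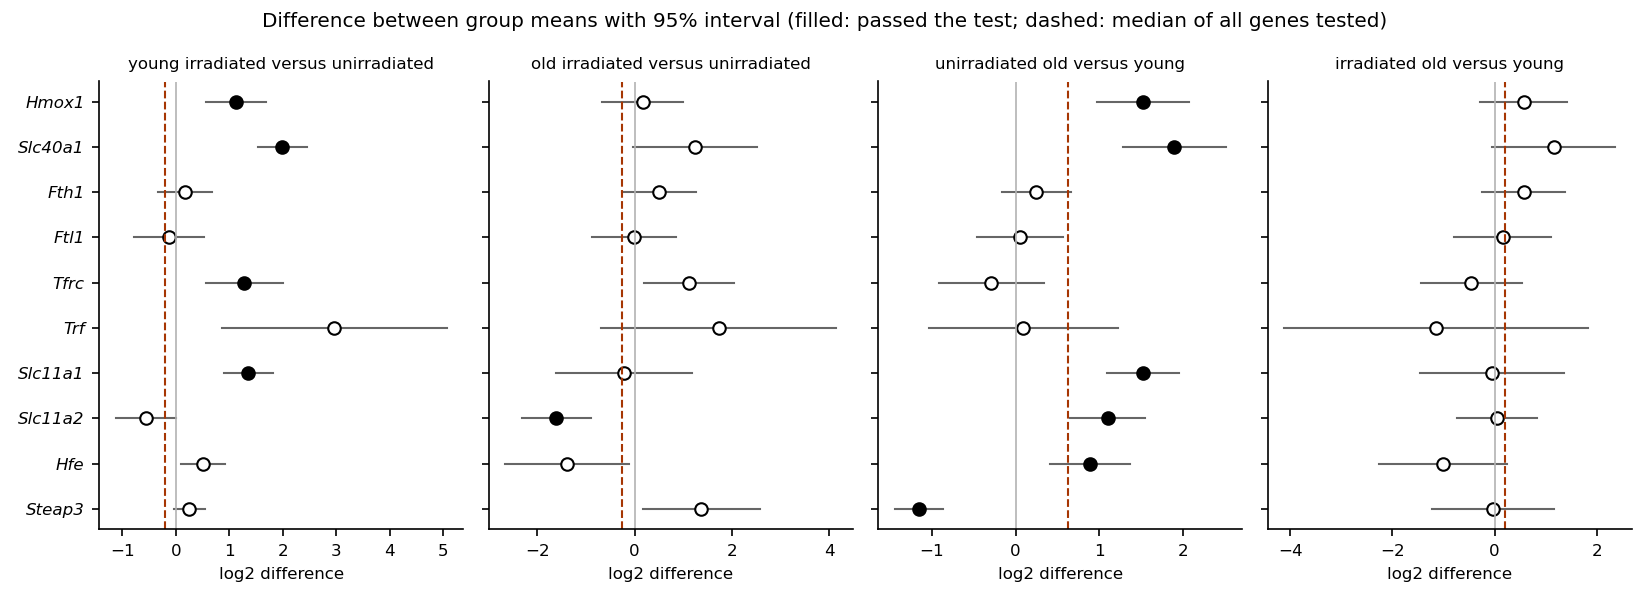
Difference between group means (horizontal axes, log2, first group minus second) of the 10 members in 4 comparisons, with 95% intervals from limma. Filled points passed the test and the dashed line is the median over the 17802 genes tested. In young irradiated mice 4 members passed, in old irradiated mice only Slc11a2 passed, and between irradiated groups no member did.

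Other genes of iron and heme handling gave the setting of these changes. Of 47 listed, 43 were on the array and 31 were tested. In young irradiated mice 8 rose and 5 fell, where 14.3% of all genes were called higher and 21.1% lower. The median difference was 0.38, against -0.20 over all genes. With the normexp background correction only 2 of the 31 (Hp and Lcn2) rose and none fell. Named here are, among those called and well above background on all arrays of a group compared, the 6 with the widest changes. Haptoglobin (Hp), which binds free hemoglobin in plasma, rose by 2.85 (SE 0.58; adjusted p = 0.00159 by limma), from 6.87 to 7.65 in unirradiated and 8.55 to 12.33 in irradiated mice. Lipocalin 2 (Lcn2), which binds bacterial iron carriers and is stored in neutrophils, rose by 1.77 (SE 0.25; adjusted p = 0.000152), and Lrp1, the receptor for the heme carrier hemopexin, by 1.54 (SE 0.35; adjusted p = 0.00312). Slc48a1, a heme transporter of the phagolysosome, fell by 1.64 (SE 0.28; adjusted p = 0.000451). Slc25a37 (mitoferrin 1), which imports iron into the mitochondria of red blood cell precursors, fell by 1.54 (SE 0.36; adjusted p = 0.0035), and Iscu, the scaffold of iron-sulfur clusters, by 1.37 (SE 0.27; adjusted p = 0.00121). Reticulocyte markers fell in 13 of 20 and rose in 3 in the same comparison, and their part was not tested. Hp is made by hepatocytes as well, and without the 7 arrays high in hepatocyte transcripts it rose by 1.44. Lrp1 (1.002) and Slc25a37 (-0.79) no longer passed without them.

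In old irradiated mice 2 of the 31 rose and 2 fell, where 7.49% of all genes were called higher and 17.4% lower, and with normexp none of the 31 was called. Exoc6, which serves the recycling of transferrin receptor, rose by 1.01 (SE 0.23; adjusted p = 0.00518 by limma). It rose in young irradiated mice too, by 1.31 (SE 0.23; adjusted p = 0.000503 by limma), but was not among the 6 widest changes there. Spic, the transcription factor of red pulp macrophages, fell by 1.89 (SE 0.30; adjusted p = 0.000978). In neither irradiated group was Spic well above background on all arrays, so the size of its fall is uncertain. With normexp the difference in old mice was 1.51 for Exoc6 and -0.63 for Spic, and neither passed. The Spic values ran from 2.29 to 3.06 in unirradiated and from 0.09 to 1.59 in irradiated old mice, without overlap, and from -0.18 to 1.67 in young mice of both treatments. The median of the 31 was 0.01, against -0.25 over all genes, and without replicates 4 and 6 there were 7 that rose and 9 that fell. The shares of all genes above are with these arrays kept, and those without them are not given. Between unirradiated ages 16 were higher and 3 lower in old mice, near the 48.4% and 15.4% of all genes, with a median of 0.80 against 0.63. The counts became 9 and 6, 7 and 3, or 7 and 6 under the 75th percentile, quantile and shared-probe scalings. Hp (2.45), Lcn2 (1.99), Spic (1.75), the iron sensor Fbxl5 (1.67) and Bach1 (1.18), the repressor of Hmox1 that heme releases, were higher and passed under all 4 scalings, though not with normexp. Under the other 3 scalings the differences were 1.82 to 1.94 for Hp, 1.38 to 1.47 for Lcn2, 1.17 to 1.43 for Spic, 1.08 to 1.17 for Fbxl5 and 0.59 to 0.66 for Bach1. Nfe2l2 (1.17), which encodes the activator NRF2, did not pass under quantile normalization, where it was 0.55. With all arrays kept, none of the 31 was called between irradiated ages or for the difference of responses.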

How the data were processed

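Whole-blood RNA of 24 mice was hybridised to one-colour Agilent mouse 4x44K v2 arrays, 1 mouse per array. Per the file headers, the deposited intensities are spot brightness that Agilent Feature Extraction 12.0.2 background-subtracted and detrended within each array. A table by the authors gives log2 values of 17166 probes, with array medians from 5.77 to 6.73. The methods describe log2 transformation, median normalization, filters on dim and little-varying probes and reduction to 1 probe per gene in BRB-ArrayTools, without naming this table. The table holds 8 members (not Fth1 and Hfe), and for Ftl1, Trf, Slc11a2 and Steap3 only probes other than those used here, so it served as an alternative.

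From the intensities, non-uniform spots were set to missing, log2 values were centred on the median of 43020 non-control spots of the array, and repeat spots were averaged. The filters took out probes that were dim or non-uniform on at least 25% of arrays, then those that lay 1.5-fold from their median on fewer than 5 arrays (20%). This left 22482 of 39429 probes, and the brightest probe of each gene name gave 17802 genes. limma 3.58.1 in R 4.3.3 compared 2 groups of 6 on 12 arrays and the difference of responses on 24, with p-values adjusted by Benjamini-Hochberg. Intervals are at 95%, and the exact permutation tests enumerated 924 splits. The number of arrays limits the precision. The alternatives were other scalings (75th percentile, quantile, shared probes, those well above background everywhere), normexp on the raw intensities (offset 50), no filters, the mean of a gene's probes, the authors' log2 values, the random variance test, 1 fit of 24 arrays, the slide or the replicate number as a block, single slides, and arrays left out. Leaving out old irradiated replicates 4 and 6, leaving out all 7 arrays high in hepatocyte transcripts and merging the most similar pair of arrays were chosen after seeing the data. The fit was tested on simulated data.

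The members and the lists of other genes and markers were chosen with earlier results of these data known. All members are named. Of the other iron genes, up to 6 per comparison are named, by size of change among those called and well above background on every array of a group. 1 gene that the rule would name is not reported here. Per member the 3 genes of highest Pearson correlation over the 24 arrays are named. Replicate numbers do not pair the mice: correlations of deviations between same-numbered arrays ran from -0.60 to 0.58.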

Additional observations from a re-analysis of the deposited data

Results flagged for a closer look

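Of 40 sets of 6 values (10 members in 4 groups), 2 held a value farther from the others than Dixon's 95% limit for 6 values allows, and chance gives about 1 in 20. Tfrc read 1.85 on old irradiated replicate 5, whereas the other 5 arrays of the group lay between 3.61 and 4.48. Slc11a2 read 2.51 on young irradiated replicate 6, whereas the others lay between 0.75 and 1.14. Each decided a call: without these arrays Tfrc passed in old mice (1.48) and Slc11a2 in young mice (-0.81).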

How the results depend on the processing

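The number of members called was 4 for young irradiated versus unirradiated mice, 1 for old, 6 between unirradiated ages, 0 between irradiated ages and 0 for the difference of responses. Leaving out each array in turn gave 3 to 5, 1 to 2, 6, 0 and 0. In young mice it was 2 with normexp and 0 within the mixed slide. In old mice it was 0 with normexp, with no filter on variation and with the authors' values, 2 with 1 fit of all 24 arrays, 2 without old irradiated replicate 5, and 4 without the 4 arrays high in hepatocyte transcripts, without all 7 such arrays or without old irradiated replicates 4 and 6. Between unirradiated ages it was 0 with normexp and 3 with the authors' values or 1 fit, and between irradiated ages 1 without the 4 arrays and 4 without replicates 4 and 6. For the difference of responses it was 4 without the 4 arrays, which keeps the 3 such arrays of young irradiated mice, and 1 without all 7. Under the other alternatives each count was within 1.5 times of the above, though the members could differ. With the replicate number as a block the counts were 4, 1, 6, 0 and 0, but Tfrc (1.28) did not pass and Trf (2.96) passed in young mice, and the genes called numbered 5070, 3465, 10363, 2 and 0, against 6297, 4428, 11365, 356 and 0. The best partner of an array had its own number for 1, 3, 0 and 1 of 6 in the 4 comparisons. Genes called numbered 1296, 118, 0, 115 and 0 with normexp, and 3734, 2774, 4361, 48 and 0 with the authors' values. Between unirradiated ages they were 6231, 6206 and 5739 with the 75th percentile, quantile and shared-probe scalings, and between irradiated ages 150, 199 and 214, with shares higher of 31.3%, 45.7% and 31.3% against 70.2%. In old mice the share higher was 30.1%, and 43.4%, 32.7%, 48.9% and, with the authors' values, 51.3%, and for the difference of responses 10, 7 and 9 genes were called under these scalings. No arrays differed by as little as repeat spots do (median difference 0.144 for the closest pair), so none were merged as planned. The causes were not tested, except that no filter on variation and the authors' values put the second probe in place of Slc11a2's.

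None of the values that turned direction under an alternative had passed the test in the comparison as reported, except Slc11a2 and Steap3 through their second probes. For young irradiated versus unirradiated mice the values that turned direction were Ftl1 0.043 with quantile normalization, Ftl1 0.48 with normexp, Ftl1 0.049 with the authors' values, Ftl1 0.42 with all 7 such arrays left out, Ftl1 0.026 with the most similar pair merged. For old irradiated versus unirradiated mice the values that turned direction were Ftl1 0.28 and Slc11a1 0.082 with 75th percentile scaling, Ftl1 0.33 and Slc11a1 0.13 with scaling on shared probes, Ftl1 0.67 and Slc11a1 0.47 with normexp, Slc11a2 0.65 with no filter on variation, Ftl1 0.37 with the mean of a gene's probes, Ftl1 0.74, Slc11a2 0.92 and Steap3 -0.30 with the authors' values, Ftl1 0.17 and Slc11a1 1.19 with the mixed slide alone, Hmox1 -0.22, Ftl1 0.74 and Trf -0.997 with 4 arrays high in hepatocyte transcripts left out and all 7 such arrays left out, Slc11a1 0.89 with old irradiated replicates 4 and 6 left out. For unirradiated old versus young mice the values that turned direction were Fth1 -0.27, Ftl1 -0.47 and Trf -0.43 with 75th percentile scaling, Fth1 -0.28, Ftl1 -0.073 and Trf -0.57 with quantile normalization, Fth1 -0.34, Ftl1 -0.54 and Trf -0.49 with scaling on shared probes, Fth1 -0.093, Ftl1 -0.40 and Trf -0.28 with normexp, Slc11a2 -0.17 with no filter on variation, Tfrc 0.20 with the mean of a gene's probes, Ftl1 -0.65, Trf -0.64, Slc11a2 -0.79 and Steap3 0.087 with the authors' values. For irradiated old versus young mice the values that turned direction were Ftl1 -0.071 and Slc11a2 -0.17 with 75th percentile scaling, Fth1 -0.16, Ftl1 -0.46 and Slc11a2 -0.10 with quantile normalization, Ftl1 -0.12 and Slc11a2 -0.22 with scaling on shared probes, Ftl1 -0.21 with normexp, Tfrc 0.37 with the mean of a gene's probes, Steap3 0.013 with slide as a random block, Tfrc 0.043, Slc11a2 -0.27 and Steap3 0.94 with 4 arrays high in hepatocyte transcripts left out, Ftl1 -0.37, Trf 0.60 and Slc11a1 1.05 with old irradiated replicates 4 and 6 left out, Slc11a2 -0.52 and Steap3 0.84 with all 7 such arrays left out, Slc11a1 0.018 with the most similar pair merged. For the difference of responses the values that turned direction were Tfrc 0.12 with 75th percentile scaling, Ftl1 -0.38 and Tfrc 0.017 with quantile normalization, Tfrc 0.15 with scaling on shared probes, Slc11a2 0.66 with no filter on variation, Hmox1 0.15, Tfrc 0.17 and Steap3 -0.51 with the mean of a gene's probes, Tfrc 0.19, Slc11a2 1.05 and Steap3 -2.07 with the authors' values, Tfrc 0.34 with 4 arrays high in hepatocyte transcripts left out, Slc40a1 0.15, Fth1 -0.088, Ftl1 -0.42 and Trf 0.51 with old irradiated replicates 4 and 6 left out, Ftl1 -0.11 with the most similar pair merged. When arrays were left out one by one, the ranges that crossed 0 were Ftl1 from -0.27 to 0.027 for young irradiated versus unirradiated mice, Hmox1 from -0.014 to 0.38 for old irradiated versus unirradiated mice, Ftl1 from -0.23 to 0.20 for old irradiated versus unirradiated mice, Slc11a1 from -0.56 to 0.23 for old irradiated versus unirradiated mice, Ftl1 from -0.081 to 0.19 for unirradiated old versus young mice, Trf from -0.16 to 0.54 for unirradiated old versus young mice, Ftl1 from -0.054 to 0.37 for irradiated old versus young mice, Slc11a1 from -0.40 to 0.39 for irradiated old versus young mice, Slc11a2 from -0.058 to 0.31 for irradiated old versus young mice, Steap3 from -0.50 to 0.19 for irradiated old versus young mice, Ftl1 from -0.10 to 0.32 for the difference of responses and Tfrc from -0.36 to 0.19 for the difference of responses.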
